A study of Sus scrofa with 15 samples.

Results

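The 10 genes described here mark the cells of the blood vessel wall. ACTA2, TAGLN, MYH11, CNN1, MYLK and LMOD1 belong to the contractile apparatus of smooth muscle, and RGS5, PDGFRB, NOTCH3 and CSPG4 are receptors or regulators typical of pericytes and other mural cells. They were chosen by gene symbol from the 30477 counted genes, and all 10 were among the 14918 genes with enough counts to be tested. ACTA1, the alpha actin of skeletal muscle, was read beside them as a marker of skeletal muscle RNA in the biopsies.

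Smooth muscle cells ring arteries and veins and contract through actin and myosin isoforms that differ from those of skeletal muscle. Pericytes sit on capillaries, where they depend on platelet-derived growth factor B released by the endothelium and sensed by PDGFRB, and on Notch ligands such as JAG1 and DLL4 sensed by NOTCH3. In adipose tissue, cells that carry PDGFRB on the vessel wall are known as a source of fat cell precursors.

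Backfat was biopsied from Iberian pigs at 12 months of age, after a growing period on a restricted control feed (C), a restricted feed with dry olive pulp (DOP) or a restricted feed plus a silage of wet crude olive cake and straw (WCOC). RNA of 5 pigs a diet was sequenced, 1 library a pig, so 15 libraries in all. Each diet was fed in a single pen, so diet and pen cannot be told apart, and the pigs sequenced were selected on the quantity and quality of their RNA. Libraries are numbered 1 to 5 within a diet, as in C1 or WCOC4.

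Between 22373715 and 34745218 read pairs a library were counted on genes, and levels are given as CPM, counts set to the same total in each library and scaled by the trimmed mean of M-values (TMM). The tissue was fat by its markers, with summed levels of 9 adipocyte genes between 15411 and 23881 CPM. The summed level of 10 macrophage genes was 247 to 740 CPM in C, 161 to 398 CPM in DOP and 121 to 295 CPM in WCOC. Of the 2 flow cells used, B held the DOP libraries and C5, and A held the WCOC libraries and C1 to C4. The contrast of WCOC with DOP therefore cannot be told apart from that of the flow cells. On flow cell A, C1 to C4 and WCOC1 to WCOC3 were on lane 2, and WCOC4 and WCOC5 were on lane 8. Flow cell and lane were read from run codes in the names of the deposited counts, not from the sample titles. The paper describes fewer samples a lane than these codes give, so the assignments are uncertain. In RNA of a whole biopsy, fewer cells of a type and less RNA per cell cannot be told apart.

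All 10 genes were detected in every library, with between 121 counts (CNN1 in WCOC1) and 10714 counts (PDGFRB). Per kilobase of exon, RGS5 had the highest mean level with 98.0 CPM per kb, followed by TAGLN with 83.5, ACTA2 with 73.8 and PDGFRB with 48.4. Below them came NOTCH3 with 26.8, MYH11 with 13.96, CSPG4 with 12.3, MYLK with 11.5, CNN1 with 6.92 and LMOD1 with 6.71 CPM per kb. The ranges over 15 libraries overlapped for every pair of neighbours in this order except PDGFRB with NOTCH3 and NOTCH3 with MYH11. For RGS5 and TAGLN the first of the pair was higher in 10 of 15 libraries, for TAGLN and ACTA2 in 13 of 15, and for CNN1 and LMOD1 in 8 of 15. The identity of the row taken as MYH11 (ENSSSCG00000000146) is in doubt. The name table pairs it with that symbol, but RefSeq places MYH11 on chromosome 3. The 10 genes nearest to the row by identifier, MYH9 among them, all lie on chromosome 5 in RefSeq. For ACTA2, TAGLN, CNN1, MYLK and CSPG4 every such neighbour lay on the member's own chromosome. For LMOD1, PDGFRB and RGS5 2 of 9 neighbours did, and for NOTCH3 0 of 9. The neighbours of these last genes were spread over several chromosomes, so the check cannot decide on their rows. The level per kilobase of the MYH11 row also uses the exon length of the RefSeq MYH11. Group medians, the mean pairwise r and the differences of the group ratio are given below without this row too. The single ratios, the ranks of libraries and the genes most like the contractile group include it. MYOCD, a coactivator of contractile genes that was named after its values were seen, had means of 2.59, 2.68 and 2.72 CPM in C, DOP and WCOC.

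The genes also differed in how evenly the pigs expressed them. NOTCH3 was the steadiest, with a highest library 1.53 times the lowest and an SD of 0.14 log2 units within diets, which lay at the 17th percentile of all tested genes. PDGFRB followed with an SD of 0.18, at the 31st percentile. CNN1 varied most, with 22.7 CPM in DOP5 against 3.96 CPM in WCOC1, a ratio of 5.72, and an SD within diets of 0.55, at the 84th percentile. The SDs of the other 7 genes lay between 0.24 for TAGLN and 0.43 for CSPG4, against a median of 0.25 over all tested genes. ACTA1 stood at the other extreme, with a ratio of 4176 between DOP5 and WCOC3 and an SD within diets of 3.42.

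The first question was whether the vessel wall genes differed between diets. A differentially expressed gene (DEG) had an adjusted p below 0.05 in edgeR's quasi-likelihood test, adjusted by Benjamini-Hochberg for the 14918 genes tested, and a log2 fold change (log2FC) of at least 0.58 in size. None of the 10 genes was a DEG in DOP vs C, where 0.764% of all tested genes were, in WCOC vs C, where 6.26% were, or in WCOC vs DOP, where 7.77% were. DESeq2 and limma-voom also called 0 of the 10 in each comparison. At an unadjusted p below 0.05 edgeR counted 1, 2 and 2 of the 10 genes, against 17.6%, 26.4% and 28.1% of all tested genes. An adjusted p below 0.05 without the limit on the fold was reached by 0, 1 and 0 of the 10, and by 0.925%, 10% and 12.3% of all tested genes. The median log2FC of the 10 genes was −0.0044, −0.07 and −0.05 in the 3 comparisons (0.08, 0.04 and −0.09 without MYH11), beside 0.011, 0.0043 and 0.00067 over all tested genes. The values of 2 diets did not overlap for 1 of the 10 genes in DOP vs C (PDGFRB) and 1 in WCOC vs C (NOTCH3), as for 3.47% and 7.62% of all tested genes. DOP vs C and WCOC vs C share the C libraries.

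**Figure D1:**
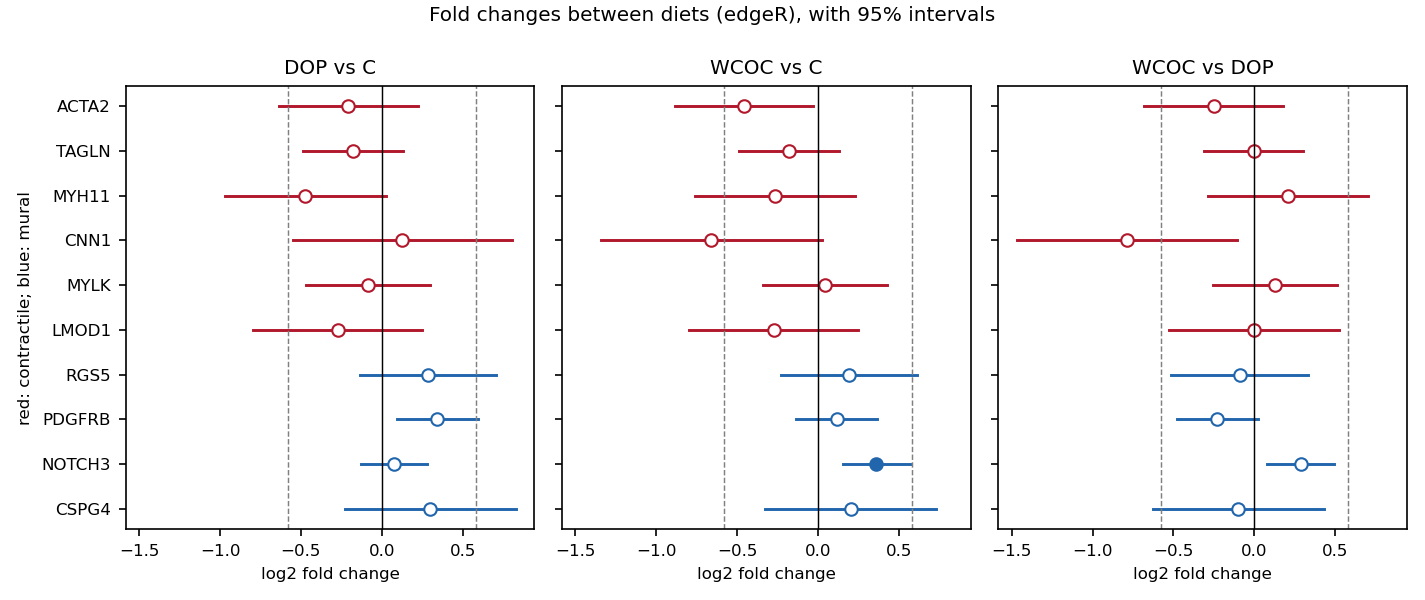
Log2 fold change (x axis) of each gene (y axis) in the 3 comparisons, with its 95% interval as a line, contractile genes in red and mural genes in blue, dashed lines at 0.58 in either direction, and a filled point where the adjusted p is below 0.05. The filled point is NOTCH3 in WCOC vs C at 0.36, and 5 of 6 contractile points lie left of 0 and 4 of 4 mural points right of 0 in both comparisons with C.

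ACTA2, the smooth muscle alpha actin, is the main filament protein of the vessel wall's contractile cells. Its levels in C1 to C5 were 131, 129, 98.0, 127 and 113 CPM, in DOP1 to DOP5 they were 129, 75.6, 111, 99.5 and 104 CPM, and in WCOC1 to WCOC5 they were 54.5, 101, 58.2, 111 and 111 CPM. The WCOC libraries were divided, with WCOC1 and WCOC3 the lowest of all 15 libraries. The other 3 lay between 101 and 111 CPM, inside the range of C. WCOC1 to WCOC3 were on lane 2 of flow cell A, with C1 to C4, and WCOC4 and WCOC5 on lane 8. The part of the lane in this division was not tested. The means were 119.7 ± 14.1 CPM in C, 104 ± 19.4 in DOP and 87.1 ± 28.4 in WCOC (SD, n = 5), and the values of the diets overlapped. In edgeR the log2FC was −0.21 ± 0.20 (SE) in DOP vs C with an adjusted p of 0.65, and −0.46 ± 0.20 in WCOC vs C with a raw p of 0.038 and an adjusted p of 0.16. The 95% interval of the latter, from −0.89 to −0.03, held the limit of 0.58 as well as values near 0.

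TAGLN encodes transgelin, an actin-binding protein of smooth muscle. Its levels were 149, 122, 116, 147 and 134 CPM in C1 to C5, 134, 92.9, 129, 112 and 123 CPM in DOP1 to DOP5, and 87.7, 137, 95.2, 150.05 and 119.8 CPM in WCOC1 to WCOC5. WCOC1, DOP2 and WCOC3 were the 3 lowest, and WCOC4 was the highest of all. The diets overlapped, with log2FC of −0.18 in DOP vs C, −0.18 in WCOC vs C and −0.0050 in WCOC vs DOP, and edgeR adjusted p of 0.58, 0.45 and 0.99.

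CNN1, calponin, binds actin and restrains the contraction of smooth muscle. It was measured at 13.1, 10.8, 9.21, 15.4 and 12.9 CPM in C1 to C5, at 12.7, 13.6, 7.90, 10.2 and 22.7 CPM in DOP1 to DOP5, and at 3.96, 7.56, 4.51, 11.2 and 11.6 CPM in WCOC1 to WCOC5. The 3 lowest libraries were WCOC1, WCOC3 and WCOC2, all on lane 2. The other WCOC libraries, on lane 8, lay inside the range of C. The log2FC was −0.66 ± 0.32 in WCOC vs C (edgeR adjusted p 0.20) and −0.79 ± 0.32 in WCOC vs DOP (raw p 0.027, edgeR adjusted p 0.12). These were the widest folds among the 10 genes and neither passed the test, with 95% intervals from −1.34 to 0.023 and from −1.47 to −0.10. Without DOP5 the log2FC of WCOC vs DOP was −0.52.

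MYH11, the smooth muscle myosin heavy chain, is a marker of mature smooth muscle, and the row paired with it is the one whose identity is in doubt. Its C libraries were close together, at 112, 117, 95.9, 108 and 118 CPM. DOP1 to DOP5 had 89.9, 37.85, 72.9, 94.5 and 101 CPM, and WCOC1 to WCOC5 had 53.2, 87.3, 89.9, 108 and 119 CPM. DOP2 and WCOC1 were the lowest, and the spread within DOP and WCOC, with SDs of 25.4 and 25.1 CPM, exceeded the 8.75 CPM of C. The log2FC was −0.47 ± 0.23 in DOP vs C with an edgeR adjusted p of 0.31, and −0.26 ± 0.23 in WCOC vs C with 0.49. Without DOP2 the first was −0.30, and without WCOC1 the second was −0.12.

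MYLK, the kinase that switches on smooth muscle myosin, and LMOD1, leiomodin, which nucleates actin filaments, gave no difference between diets that passed the test. MYLK spanned 78.1 to 154 CPM in C, 81.3 to 116 CPM in DOP and 99.3 to 121 CPM in WCOC, with the whole width of the data spanned by C4 and C1. LMOD1 spanned 19.8 to 36.03 CPM in C, 12.9 to 35.4 CPM in DOP and 18.9 to 32.0 CPM in WCOC. Their edgeR adjusted p lay between 0.50 and 1.00 in the 3 comparisons.

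Among all 10 genes, NOTCH3 had the smallest adjusted p. It is the Notch receptor of mural cells, needed to keep arterial smooth muscle mature. Its levels were 185, 218, 186, 188 and 198 CPM in C1 to C5, 250.2, 194, 217, 188 and 177 CPM in DOP1 to DOP5, and 258, 249, 271, 255 and 219 CPM in WCOC1 to WCOC5. Each WCOC library was above each C library, as in 3.75% of all tested genes, while DOP reached from below C to the middle of WCOC. The mean was 195 ± 13.8 CPM in C, 205 ± 28.8 in DOP and 250.5 ± 19.3 in WCOC (SD, n = 5).

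NOTCH3 was higher in WCOC than in C by a log2FC of 0.36 ± 0.10, with an edgeR adjusted p of 0.031, a limit passed by 10% of all tested genes, but its fold stayed below that required of a DEG. On flow cell A alone, with C1 to C4 against all WCOC libraries, the log2FC was 0.36 and the adjusted p 0.0602. The adjusted p exceeded 0.05 without C1 (0.0691), C3 (0.0835), C4 (0.0647), C5 (0.0552), WCOC1 (0.0750), WCOC3 (0.0693) or WCOC4 (0.0614), while the log2FC stayed between 0.33 and 0.41. Of 21 other fits of WCOC vs C, 11 gave NOTCH3 an adjusted p below 0.05. In those that did not leave out 1 library, the log2FC lay between 0.31 and 0.37. In WCOC vs DOP the log2FC was 0.29 ± 0.10 with an edgeR adjusted p of 0.066. Over the other fits the adjusted p lay between 0.019, without DOP1, and 0.48, with flow cell as a covariate, and the log2FC was 0.16 with ACTA1 as a covariate. In DOP vs C it was 0.08 ± 0.10, with an adjusted p of 0.74.

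PDGFRB, the receptor through which endothelial growth factor holds pericytes on capillaries, had its highest mean in DOP. Its levels were 281, 283, 267, 244 and 235 CPM in C1 to C5, 404, 299, 295, 376 and 287 CPM in DOP1 to DOP5, and 243, 267, 274, 340.3 and 293 CPM in WCOC1 to WCOC5. Each DOP library was above each C library, as in 1.7% of all tested genes, and the lowest DOP value lay within 5 CPM of the highest C value. The log2FC of DOP vs C was 0.34 ± 0.12 with a raw p of 0.011 and an edgeR adjusted p of 0.16, so it did not pass the test. In flow cell B, the only C library, C5, had 235 CPM and the DOP libraries 287 CPM or more.

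RGS5, a regulator of G protein signals that is used as a pericyte marker, and CSPG4, the NG2 proteoglycan of pericytes, overlapped between all diets. RGS5 spanned 124 to 274 CPM in C, 178 to 299.9 CPM in DOP and 178 to 257 CPM in WCOC. CSPG4 spanned 51.4 to 129 CPM in C, 98.985 to 164 CPM in DOP and 72.1 to 142 CPM in WCOC. Their log2FC against C lay between 0.19 and 0.30, and their edgeR adjusted p in the 3 comparisons between 0.49 and 0.84. These log2FC rested on few libraries. In DOP vs C that of CSPG4 (0.30) was 0.13 without DOP4, 0.15 without C5 and 1.15 with flow cell as a covariate, and that of RGS5 (0.28) was 0.14 without DOP5, 0.17 without C4 and 0.49 without C2. In WCOC vs C that of CSPG4 (0.20) was 0.038 on flow cell A alone and up to 0.34 without C4, and that of RGS5 (0.19) lay between 0.080 without C4 and 0.40 without C2.

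Among the 10 genes, the contractile and mural groups leaned to opposite sides of C, although single genes did not pass the test for a DEG. Of 6 contractile genes 5 had a log2FC below 0 in DOP vs C and 5 in WCOC vs C, with medians of −0.19 and −0.27, and without MYH11 4 of 5 in each, with medians of −0.18 and −0.28. All 4 mural genes had a log2FC above 0 in both, with medians of 0.29 and 0.20, while 52.2% and 50.6% of all tested genes were above 0. Of 18 further contractile genes 10 were above 0 in DOP vs C, with a median of 0.06, so they did not share the lean. In WCOC vs C 5 of these 18 were above 0, with a median of −0.18. TPM1, TPM2, DES and PDLIM7, described below, are among them. Of 14 other pericyte genes 11 were above 0 in each comparison with C. In WCOC vs DOP the medians of the contractile and mural members were −0.0037 and −0.10. None of the 10 genes separated these diets, as 8.9% of all tested genes did. Set against each other within a library, the summed contractile level was 0.789, 0.624, 0.642, 0.740 and 0.720 times the summed mural level in C1 to C5. The ratio was 0.519, 0.414, 0.540, 0.496 and 0.546 in DOP1 to DOP5, and 0.411, 0.569, 0.432, 0.593 and 0.590 in WCOC1 to WCOC5.

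This ratio, which does not depend on how the libraries were scaled, was formed after the values were seen and was given no test. All 5 C libraries were above all DOP and WCOC libraries, and DOP and WCOC overlapped. The log2 difference of the ratio was −0.48 in DOP vs C and −0.45 in WCOC vs C, and −0.44 on flow cell A alone. Without MYH11 the differences from C were −0.41 and −0.43, and C again did not overlap DOP or WCOC. On flow cell B, C5 with 0.720 stood above the DOP libraries. C remained apart from DOP in 9 of 11 other ways to form the ratio and apart from WCOC in 6 of 11, these being the omission of each gene in turn and an average of log2 levels in which each gene counts equally. With the average of log2 levels, both olive diets overlapped C. DOP also overlapped C without RGS5, and WCOC without MYLK, PDGFRB, NOTCH3 or CSPG4.

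**Figure D2:**
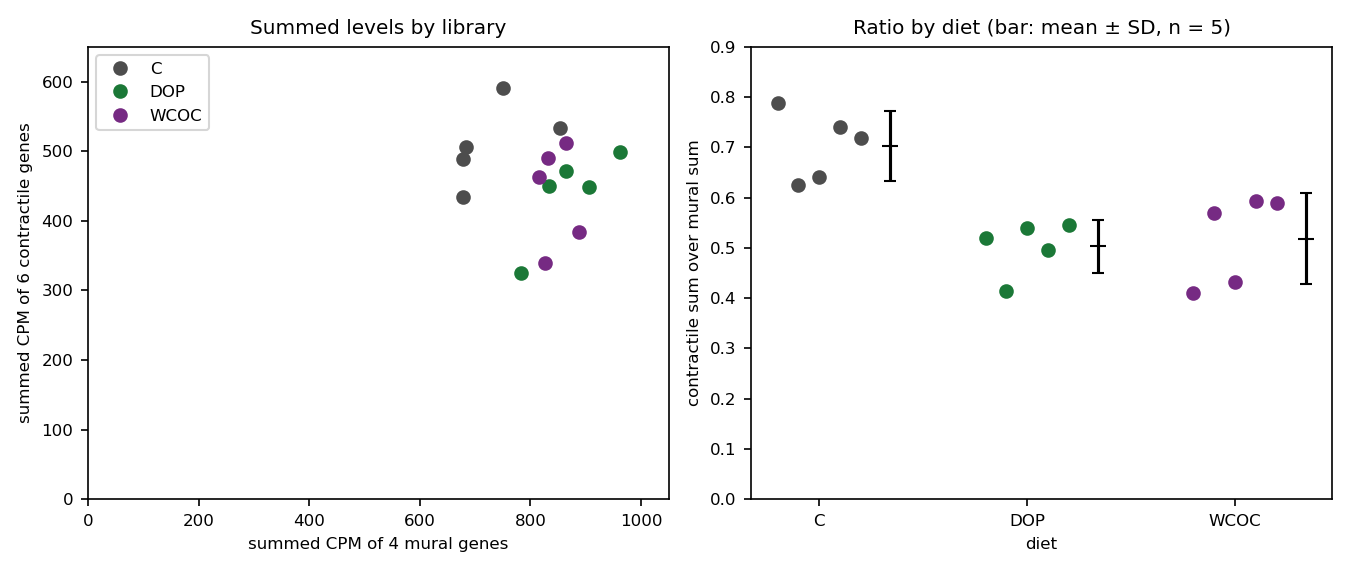
Left, summed CPM of the 6 contractile genes (y axis) against summed CPM of the 4 mural genes (x axis) in each library. Right, the ratio of these sums by diet, with points for the 5 libraries and the mean ± SD as a bar, where C lies between 0.624 and 0.789, DOP between 0.414 and 0.546 and WCOC between 0.411 and 0.593.

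Skeletal muscle and vessel wall signals had to be separated, since a biopsy can reach into muscle and the actins of both tissues are close relatives. ACTA1 was measured at 1357, 14.9, 1883, 108 and 37.5 CPM in C1 to C5, at 12.6, 6543, 112, 3238 and 23994 CPM in DOP1 to DOP5, and at 116, 48.3, 5.75, 377 and 26.1 CPM in WCOC1 to WCOC5. High libraries occurred in C and DOP, and the levels formed a continuous series rather than separate groups of pigs. The log2FC of ACTA1 was 3.32 ± 1.67 in DOP vs C and −5.89 ± 1.88 in WCOC vs DOP, with edgeR adjusted p of 0.32 and 0.053. Of the 30 genes of a skeletal muscle list 23 were matched and 22 tested. Their sum, which includes CA3, a gene fat cells also express, was 2338 to 8687 CPM in C, 4351 to 77714 CPM in DOP and 3248 to 4561 CPM in WCOC. The mean of the sum was 4494, 23925 and 3878 CPM in C, DOP and WCOC, and that of CA3 alone was 2357, 3816 and 3335 CPM. Most of the sum in WCOC was therefore CA3, and it cannot be read there as a level of skeletal muscle RNA. TNNI2 was at 0 in every library, while TNNC2 of the same list reached 3059 CPM in DOP5, and the reason was not tested.

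The coding sequences of ACTA2 and ACTA1 show how far reads could be confused. Both are 1134 bases long and were 86.9% identical, with a longest identical run of 35 bases. The reads were 76 bases long, and each of the 1097 windows of that length in the ACTA2 transcript differed from its closest window of the ACTA1 transcript at 4 or more positions, without gaps, with a median of 9. The first 60 coding bases (RefSeq, Sscrofa11.1) are shown as an example, with the 15 bases at which the genes differ in capitals. Differences are denser in this stretch than over the whole coding sequence, so it is not typical of it.
ACTA2: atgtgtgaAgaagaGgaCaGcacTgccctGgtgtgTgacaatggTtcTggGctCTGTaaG
ACTA1: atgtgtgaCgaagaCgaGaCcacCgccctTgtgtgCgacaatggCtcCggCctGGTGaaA

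Across the 15 libraries ACTA2 did not follow ACTA1. ACTA1 changed 4176-fold and ACTA2 2.41-fold, and the Pearson correlation of their log2 CPM was −0.0029 (rho −0.29, permutation p 0.99 and 0.30). DOP5, with the most ACTA1, had 104 CPM of ACTA2, and WCOC3, with the least, had 58.2 CPM. Within diets r was −0.19, on flow cell A 0.31 (n = 9) and on flow cell B −0.73 (n = 6), so the sign differed between flow cells, and it was 0.14 without DOP2 and DOP5, the libraries farthest from the median of ACTA1.

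The relation to ACTA1 was computed for all tested genes, and for 2 further measures, ACTA2 and the mean of the endothelial list, and permutation p-values were adjusted over all tested genes of a measure. None of the 10 genes passed that adjustment for ACTA1. TAGLN had an r of −0.06, MYH11 −0.27, MYLK −0.39, CNN1 0.47, RGS5 −0.10, PDGFRB 0.12 and CSPG4 0.17, with adjusted p from 0.38 to 0.95. Signs again differed between flow cells for TAGLN (0.41 on A, −0.68 on B), RGS5 (−0.66 on A, 0.39 on B), CSPG4 (−0.079 on A, 0.41 on B), MYH11 (0.020 on A, −0.32 on B) and PDGFRB (0.075 on A, −0.069 on B). For a comparison with background, 17.1% of all tested genes had an r of at least 0.5 in size with ACTA1.

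LMOD1 and NOTCH3 were the members that came nearest to a relation with ACTA1, in opposite directions. LMOD1 had an r of 0.61 (rho 0.60, permutation p 0.015 and 0.019, adjusted 0.18 and 0.31), of 0.59 without DOP2 and DOP5, of 0.79 within diets, and of 0.85 and 0.71 on flow cells A and B. NOTCH3 had an r of −0.69 (rho −0.65, permutation p 0.0049 and 0.0099, adjusted 0.093 and 0.24), of −0.61 without the same libraries, of −0.77 within diets, and of −0.58 and −0.84 on flow cells A and B. Each kept its sign in every subset and neither passed the adjustment. With ACTA1 as a covariate, LMOD1 in WCOC vs DOP had a log2FC of 0.43 (adjusted p 0.20) in place of −0.0024.

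**Figure D3:**
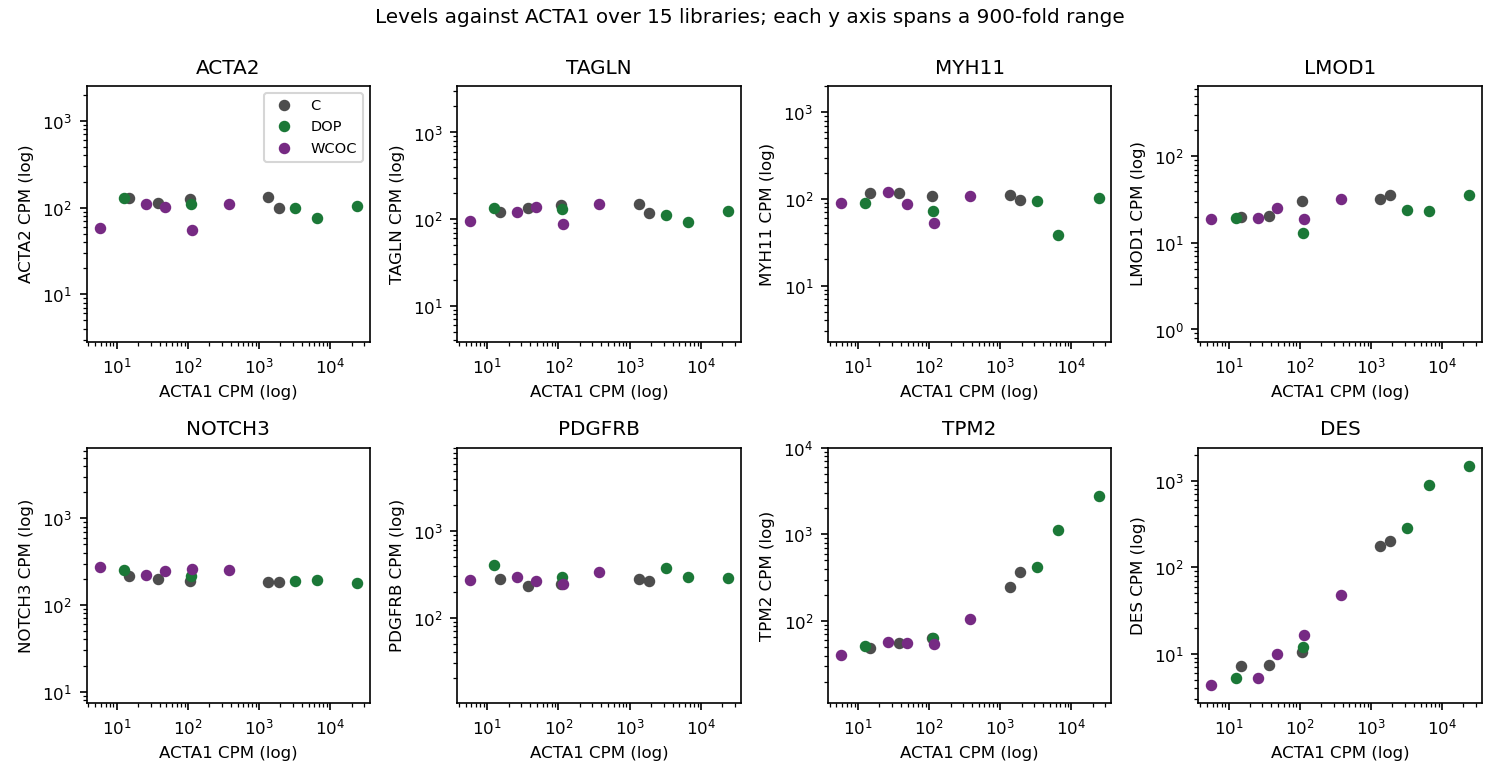
CPM of 6 vessel wall genes and of TPM2 and DES (y axes, log scale, all of the same width) against CPM of ACTA1 (x axes, log scale) in 15 libraries, coloured by diet. On y axes this wide the vessel wall genes look nearly flat over the 4176-fold range of ACTA1, also LMOD1 (r 0.61) and NOTCH3 (r −0.69). TPM2 and DES climb with ACTA1, with r of 0.95 and 0.98.

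Other genes that are often read as smooth muscle genes did follow skeletal muscle in these biopsies. DES (desmin, r 0.98 with ACTA1), TPM2 (0.95), PDLIM7 (0.80) and TPM1 (0.77) passed the adjustment, with adjusted permutation p from 0.00086 to 0.0058. Desmin and the tropomyosins are shared by both muscle types. These 4 genes were picked for this relation after their DEG status was seen. TPM2 had 51.3, 1136, 63.0, 419 and 2805 CPM in DOP1 to DOP5 and between 40.3 and 105 CPM in WCOC, and its high libraries were those of ACTA1.

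A list of 22 further smooth muscle filament, contractile and calcium genes matched 19 and tested 18. None was a DEG in DOP vs C, 1 rose in WCOC vs C, beside 2.33% of all tested genes, and in WCOC vs DOP 1 rose and 4 fell, beside 2.65% and 5.11% of all tested genes. The 4 that fell were TPM1, TPM2, DES and PDLIM7, with log2FC from −1.53 to −5.00 and edgeR adjusted p from 0.024 to 0.048. With ACTA1 as a covariate TPM2 had a log2FC of −0.61 (adjusted p 0.49) and DES of −0.24 (adjusted p 0.82), TPM1 of −0.53 (0.61) and PDLIM7 of −0.44 (0.57). TPM2 lost the call without DOP5, WCOC1, WCOC3 or WCOC5 (adjusted p 0.0657, 0.0587, 0.0541 and 0.0530), and DES without any of DOP2, DOP4, DOP5 or the 5 WCOC libraries (0.0531 to 0.0929). Of 20 other fits, the call held in 12 for TPM2, 7 for DES, 7 for TPM1 and 6 for PDLIM7, and TPM1 and PDLIM7 also lost it without any of DOP2, DOP4, DOP5 or the 5 WCOC libraries. MYL9, the smooth muscle regulatory light chain, was at 0 in every library. The annotation release used for counting is not given, so this 0 cannot be read as absent expression. The abundant genes of the list CALD1, FLNA and MYL6 gave no DEG.

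The gene that rose, ITGA8, an integrin of smooth muscle and mesangial cells, did so by way of few libraries. Its levels were 3.92, 1.67, 2.45, 1.71 and 3.45 CPM in C1 to C5, 2.05, 2.23, 3.86, 2.70 and 2.51 CPM in DOP1 to DOP5, and 13.5, 2.40, 3.82, 21.9 and 4.78 CPM in WCOC1 to WCOC5. WCOC4 and WCOC1 stood above all others, and WCOC2 and WCOC3 lay in the range of C. The log2FC was 1.82 in WCOC vs C and 1.80 in WCOC vs DOP, with edgeR adjusted p of 0.036 and 0.034. Without WCOC4 they were 1.23 and 1.21 (adjusted p 0.11 and 0.10), without WCOC1 1.64 and 1.62 (0.0935 and 0.0784), and the call held in 10 of 21 and 10 of 20 other fits.

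Across pigs, ACTA2, TAGLN and the row paired with MYH11 moved together, and the other contractile genes did so less steadily or not at all. ACTA2 and TAGLN had an r of 0.88 (rho 0.76, permutation p 0.00011 and 0.0016), 0.90 within diets, 0.88 and 0.96 on flow cells A and B and 0.77 without WCOC1 and WCOC3, the farthest libraries for ACTA2. The adjusted p was 0.36, because it was taken over all tested genes, and 11.6% of these had an r of at least 0.5 in size with ACTA2. MYH11 had an r of 0.65 with ACTA2, of 0.76 without WCOC1 and WCOC3, and of 0.83 and 0.78 on the flow cells. CNN1 had an r of 0.71 that was 0.08 without these libraries and 0.96 on flow cell A and −0.13 on flow cell B, so its relation to ACTA2 rested on WCOC1 and WCOC3. MYLK and LMOD1 had r of 0.05 and 0.22 with ACTA2, and −0.41 with each other.

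The 4 mural genes showed little of this. Their 6 pairwise r lay between −0.29 and 0.30 with a mean of 0.08, against 0.30 for the 15 contractile pairs (0.25 for the 10 without MYH11), 0.64 for 55 pairs of endothelial genes and 0.87 for 231 pairs of skeletal muscle genes. The pairs share libraries, depth and scaling, so these means are descriptions. A strong negative r joined the groups in 1 place, CNN1 with NOTCH3 at −0.70. Library WCOC1 was among the 3 lowest of 15 for 5 of 6 contractile genes, and WCOC3 and DOP2 each for 4.

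**Figure D4:**
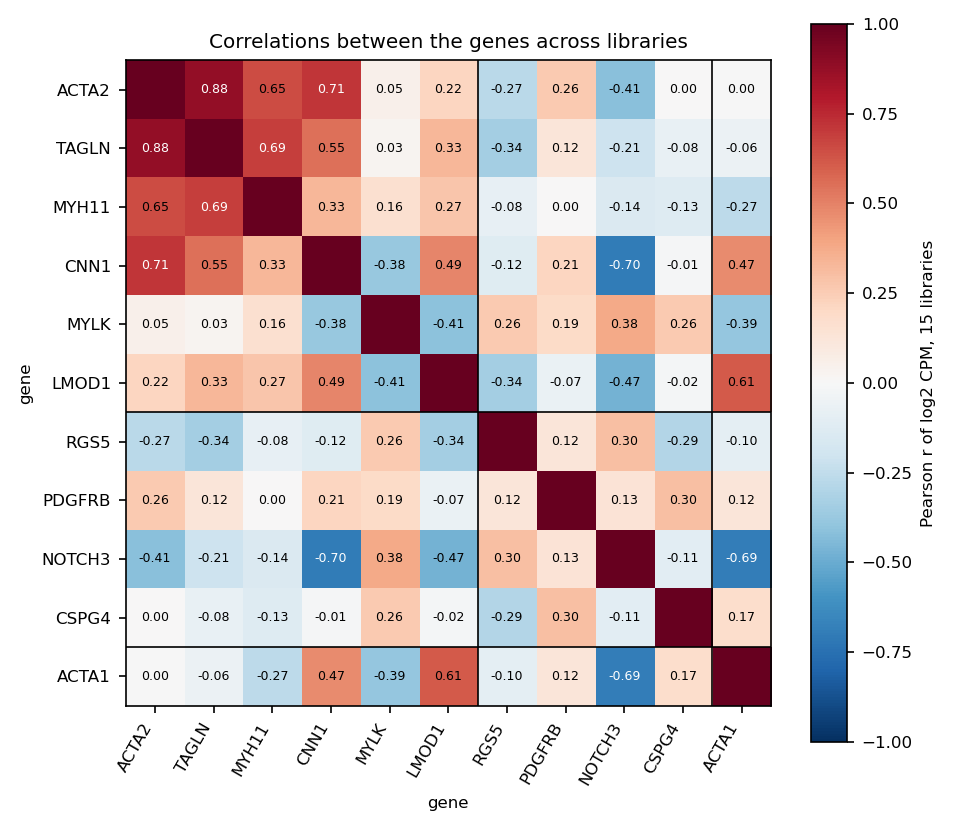
Pearson r of log2 CPM over 15 libraries for each pair of the 10 genes and ACTA1, with r printed in each cell and the colour scale from −1 to 1, and with black lines between contractile genes, mural genes and ACTA1. The block of ACTA2, TAGLN, MYH11 and CNN1 runs from 0.33 to 0.88, and the mural block stays between −0.29 and 0.30.

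The genes whose levels ran most like the contractile members, by their mean r to the 6 genes over 15 libraries, were an unnamed gene (ENSSSCG00000042450, 0.54), DCPS (0.53), ACTG2 (0.53), LLPH (0.52) and KCNMB1 (0.51). None followed all 6, since their lowest r to a single member lay between −0.24 for ACTG2 and 0.10 for KCNMB1. The unnamed gene and KCNMB1 were also low, with means of 0.31 and 1.49 CPM. ACTG2, the gamma actin of enteric and vascular smooth muscle, and KCNMB1, the smooth muscle subunit of a calcium-activated potassium channel, are contractile cell genes. ACTG2 had a mean of 7.39 ± 2.20 CPM in C, 4.89 ± 2.17 in DOP and 3.92 ± 2.40 in WCOC (SD, n = 5), and its log2FC of −0.91 in WCOC vs C did not pass the test (edgeR adjusted p 0.16). For the 4 mural members they were MECOM (0.49), OLFM3 (0.49), PREX2 (0.49), TBX2 (0.49) and another unnamed gene (ENSSSCG00000000649, 0.48). These are the highest of 14918 genes in each case and are descriptions.

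Of 9 tested regulators of smooth muscle transcription none was a DEG in any comparison. MRTFB, a coactivator of serum response factor that responds to actin, was higher in WCOC than in C by a log2FC of 0.37 with an edgeR adjusted p of 0.020, below the fold of a DEG. Its mean was 92.9 ± 7.56 CPM in C and 119.9 ± 13.9 in WCOC (SD, n = 5). The other abundant genes of the list, MEF2C and TEAD1, and the related MRTFA gave adjusted p above 0.16 in all comparisons.

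Of 14 other pericyte genes, all tested, 1 was a DEG in DOP vs C, 0 in WCOC vs C and 1 in WCOC vs DOP. The shares of all tested genes were 0.764%, 6.26% and 7.77%. The gene called was KCNJ8 both times. KCNJ8 is the pore of the potassium channel by which pericytes sense energy state. Its levels were 21.4, 16.8, 16.2, 13.6 and 15.5 CPM in C1 to C5, 22.6, 27.7, 23.1, 32.3 and 36.9 CPM in DOP1 to DOP5, and 12.1, 17.2, 14.8, 14.5 and 16.5 CPM in WCOC1 to WCOC5. Each DOP library was above each C library, as in 1.7% of all tested genes, and above each WCOC library. In WCOC vs DOP the values of 8.9% of all tested genes did not overlap, in either direction. C5, the C library of the same flow cell as DOP, was at 15.5 CPM.

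KCNJ8 rose in DOP vs C by a log2FC of 0.77 ± 0.15 (edgeR adjusted p 0.037) and fell in WCOC vs DOP by 0.92 ± 0.15 on the log2 scale (edgeR adjusted p 0.0031). The second call held in 19 of 20 other fits and the first in 8 of 20. WCOC vs DOP coincides with the flow cells, so fits without a flow cell term cannot check the second call. With flow cell as a covariate, 1 of all tested genes was a DEG in WCOC vs DOP. In DOP vs C the adjusted p exceeded 0.05 without C3 (0.11), C4 (0.0616), C5 (0.0904), DOP2 (0.0704), DOP3 (0.0564), DOP4 (0.10) or DOP5 (0.0772). KCNJ8 also ran with ACTA1, with an r of 0.65 that was 0.37 without DOP2 and DOP5, and with ACTA1 as a covariate the log2FC were 0.65 and −0.72 with adjusted p of 0.0653 and 0.019. MCAM, an adhesion molecule of mural and endothelial cells, was lower in WCOC than in DOP by 0.48 on the log2 scale, with an edgeR adjusted p of 0.025 and below the fold of a DEG. EBF1, GUCY1A1 and GUCY1B1, the other abundant genes of the list, gave no DEG.

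The ligands and receptors around the mural cells were tested as 17 genes. None was a DEG in DOP vs C or WCOC vs C, and 1 rose in WCOC vs DOP, beside 2.65% of all tested genes. It was PDGFA, a ligand of the alpha and not mainly the beta receptor, with a log2FC of 0.69 (edgeR adjusted p 0.0074). PDGFA had 37.2 to 55.2 CPM in DOP and 57.8 to 94.8 in WCOC. Its call held in 19 of 20 other fits. WCOC vs DOP coincides with the flow cells, so fits without a flow cell term cannot check this call. PDGFB, the ligand of PDGFRB, had log2FC of 0.41 in DOP vs C and 0.37 in WCOC vs C with edgeR adjusted p of 0.15 and 0.094, and HEYL, a target of Notch, had log2FC of −0.21 and −0.33 with 0.68 and 0.36. These 2 were named after their values were seen, for their place beside PDGFRB and NOTCH3. JAG1, a ligand of NOTCH3, was higher in WCOC than in DOP by 0.35 on the log2 scale (edgeR adjusted p 0.042). TGFBR2 was lower by 0.43 (edgeR adjusted p 0.028), and both stayed below the fold of a DEG. With PDGFA, 3 of the 17 genes reached an adjusted p below 0.05, beside 12.3% of all tested genes. For JAG1 and TGFBR2 too, diet and flow cell cannot be told apart in this comparison. ENG and ACVRL1, endothelial receptors of the same pathway as TGFBR2, gave no DEG.

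Endothelial genes were read beside the mural genes. Of 13 listed genes 11 were matched and tested, none at 0 in any library, and their sum was 1255 to 1580 CPM in C, 1603 to 2058 CPM in DOP and 1414 to 2209 CPM in WCOC, so that DOP lay above C. In WCOC vs C 2 rose, CLDN5, a tight junction protein, by a log2FC of 0.75 (edgeR adjusted p 0.012) and ERG, an endothelial transcription factor, by 0.64 (0.0018), both of which held in all 21 other fits, beside 2.33% of all tested genes that rose as DEGs. An adjusted p below 0.05 was reached by 5 of the 11, all higher in WCOC, beside 10% of all tested genes. PECAM1, CDH5, KDR and FLT1, the most abundant, had log2FC from 0.25 to 0.55 in that comparison. The mean log2 level of the list had an r of 0.61 with PDGFRB (rho 0.54, permutation p 0.016 and 0.039, adjusted 0.17 and 0.24) and of 0.58 with NOTCH3 (rho 0.64, permutation p 0.027 and 0.012, adjusted 0.20 and 0.16).

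For PDGFRB the r with the endothelial mean was 0.49 without C4 and WCOC4, 0.66 within diets, 0.55 on flow cell A and 0.98 on flow cell B. For NOTCH3 it was 0.46 without the same libraries, 0.26 within diets, 0.71 on flow cell A and 0.36 on flow cell B. The contractile ACTA2, TAGLN, CNN1 and LMOD1 had r between −0.36 and −0.30 with it, and MYH11 −0.14. None of the 10 genes passed the adjustment, and 20.6% of all tested genes had an r of at least 0.5 in size with this measure. The part of the endothelial signal in the differences of PDGFRB and NOTCH3 was not tested.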

How the data were processed

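The authors aligned untrimmed read pairs of 15 backfat libraries, 5 pigs a diet, to Sscrofa11.1 with HISAT2 after FastQC and counted them per gene with HTSeq, and deposited them as raw counts, 1 file a library. Alignment was set as strand-specific. Versions, the annotation release and the strand option of the counting are not given in the sources used here, so genes that overlap a neighbour are uncertain. Summary lines without a gene (23.4% to 32.8% of a library) stayed out. CPM and log2 values were computed here from the deposited counts.

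Counts were filtered with filterByExpr (14918 of 30477 genes), scaled by TMM and fitted with 1 mean per diet over all 15 libraries in edgeR 4.0.16 (R 4.3.3), two-sided, with Benjamini-Hochberg adjustment across the genes tested. Values given as ± after a log2FC are SEs. The script was tested on simulated data. Correlations used log2 CPM with a prior count of 1 and 100000 permutations in Python 3.11.15 with numpy 2.4.6. The smallest p these can give is 1e-05.

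Members and gene lists were chosen with earlier results of these data known. Named are the members and ACTA1, of each list the 4 most abundant genes and up to 5 DEGs, and the 5 genes most like each member group, with others marked as named later. Symbols came from a gene name table, and positions and sequences from RefSeq (Sscrofa11.1). Same-numbered libraries of 2 diets had correlated deviations between −0.50 and 0.34, so the numbers do not pair the pigs. No 2 libraries of a diet agreed within counting noise. Alternatives changed 1 choice at a time: scaling (size factors as in DESeq2, or TMM free of skeletal muscle and the 50 most abundant genes), the filter (none, or at least 10 counts in each library), the tool (DESeq2 1.42.0, limma-voom 3.58.1), the libraries (a pair of diets, flow cell A alone, 1 library left out) and the terms fitted (replicate block, flow cell, ACTA1).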

Additional observations from a re-analysis of the deposited data

Results flagged for a closer look

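Of 33 sets of 5 libraries, the 10 genes and ACTA1 in 3 diets, 2 held a library far from the other 4 by Dixon's ratio, the gap to the nearest library over the whole range (critical value 0.71). CSPG4, the NG2 proteoglycan of pericytes, was at 164 CPM in DOP4 and between 98.985 and 108 CPM in the other DOP libraries, a ratio of 0.868. ACTA1, the skeletal muscle actin, was at 23994 CPM in DOP5 and at 6543 CPM or less in the other DOP libraries, a ratio of 0.728. Chance flags about 1 in 20 such sets if their values are normally distributed. The ratio was taken on CPM, and ACTA1 ran from 12.6 to 23994 CPM in DOP, so that rate need not hold for ACTA1.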

How the results depend on the processing

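None of the 10 genes was a DEG in any alternative (20 for DOP vs C, 21 for WCOC vs C, 20 for WCOC vs DOP), while the number of DEGs among all genes moved. In DOP vs C 114 became 35 with ACTA1 as a covariate, 507 with DESeq2, 19 with limma-voom, 2 with only the diets compared, and 0 to 200 with 1 library left out. It was 0 without C3, C5, DOP2 or DOP4, 1 without DOP5, 4 without DOP3, 46 without C4 and 200 without C1. In WCOC vs C 934 became 486 on flow cell A alone and 468 to 1164 with 1 library left out, where C3, WCOC1 and WCOC4 gave 532, 468 and 596. In WCOC vs DOP 1159 became 454 with ACTA1 as a covariate, 1 with flow cell as a covariate, where C5 alone links the flow cells, and 640 to 1292 with 1 library left out, where DOP2, DOP5, WCOC1, WCOC4 and WCOC5 gave 731, 699, 640, 700 and 772. The replicate block gave 0, 473 and 561 DEGs, took the adjusted p of NOTCH3 in WCOC vs C (edgeR) from 0.031 to 0.0725, and gave LMOD1 in WCOC vs DOP a log2FC of 0.0010, but same-numbered libraries share only a number. The median log2FC of the 10 genes in WCOC vs DOP was −0.26 with flow cell as a covariate.

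Signs turned for these log2FC. In DOP vs C, CNN1 had −0.047 with ACTA1 as a covariate and −0.15 to 0.26 with 1 library left out, MYLK 0.16 with flow cell as a covariate and −0.18 to 0.078 with 1 left out, LMOD1 0.15 with flow cell as a covariate, and NOTCH3 −0.010 to 0.12 with 1 left out. In WCOC vs C, MYLK had −0.0090 with ACTA1, −0.021 on flow cell A alone, −0.012 with flow cell as a covariate and −0.058 to 0.20 with 1 left out. In WCOC vs DOP, TAGLN had 0.0083 with TMM free of muscle and top genes, 0.0033 with no filter and −0.096 to 0.085 with 1 left out. LMOD1 there had 0.43 with ACTA1, 0.016 with that TMM, 0.044 with limma-voom, 0.0083 with no filter and −0.15 to 0.21 with 1 left out. MYLK had −0.17 and RGS5 0.058 with flow cell as a covariate, and with 1 left out RGS5 had −0.19 to 0.046 and CSPG4 −0.22 to 0.062. The r with ACTA1 was −0.73 for ACTA2 and −0.68 for TAGLN on flow cell B alone and −0.66 for RGS5 on flow cell A alone. The causes were not tested. The alternatives for the ratio of contractile to mural sums were chosen after seeing the data, and its differences from C stayed below 0 in each. With 5 pigs a diet, the 95% intervals of the 10 genes reached from 0.21 to 0.68 log2 units to either side of the log2FC, so smaller differences could be missed.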
